A study of Rattus norvegicus with 16 samples.

Results

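Slc14a1 encodes the urea transporter UT-B, and its transcript was followed here in the brains and blood of rats with and without a traumatic brain injury. The gene is 1 row of 26031 in the deposited table for the hippocampal field CA1 and 1 row of 24779 in the table for white blood cells (WBC), found by its symbol. It was chosen by its measured FPKM in these same libraries, because the injured and sham values did not overlap in either tissue and lay in opposite directions. Its levels and differences are therefore given as a description, without a test. All rats were male Sprague-Dawley animals of 200 to 240 g. They received either a fluid percussion injury, in which a pulse of fluid deforms the brain (the TBI groups), or sham surgery, and tissue was taken 1 week later, after a test of learning. Poly-A RNA was sequenced from dissected CA1 and from WBC isolated from blood, in 4 libraries for each tissue and treatment, 16 in all. The labels give no age, and they say nothing of which CA1 and WBC libraries came from the same rat.

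UT-B is a membrane channel that lets urea pass down its gradient, and it also passes water. In blood it sits in the red cell membrane, where it carries the Kidd blood group antigens and lets the cell take up and release urea quickly as it passes through the concentrated inner kidney. In brain the transcript is mainly that of astrocytes, the glial cells that buffer water, ions and transmitters. Most of the brain has no complete urea cycle, although arginase, which splits arginine into urea and ornithine, is made there.

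The RefSeq sequence of the 250 bases upstream of 1 annotated Slc14a1 start is shown because the gene is read in cells as unlike as red cell precursors and astrocytes. It lies at chr18:73864644-73864893 of build GRCr8 on the minus strand and is printed 5′ to 3′ on the gene's strand. The deposited tables use another build, rn5, and do not say which start was in use. Capitals mark matches to 3 short motifs searched on both strands.

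Slc14a1 upstream sequence: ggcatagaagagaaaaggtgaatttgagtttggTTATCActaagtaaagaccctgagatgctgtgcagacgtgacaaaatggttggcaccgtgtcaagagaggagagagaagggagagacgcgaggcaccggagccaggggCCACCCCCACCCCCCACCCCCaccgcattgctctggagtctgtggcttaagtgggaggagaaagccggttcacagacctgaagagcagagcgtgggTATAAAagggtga

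The first block of capitals is the 1 match to the GATA motif, searched as AGATAA and as its variants AGATAG and TGATAA and TGATAG, and it reads TGATAA on the other strand. At least 1 match to that motif stood in 27.0% of 33469 RefSeq promoters searched the same way. The middle block holds 5 overlapping matches to the motif CCNCNCCC (N is any base), which was present in 42.8% of promoters. The last block is the motif TATAAA, which was present in 12.9%. A match describes letters only, and all 3 motifs were common.

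The values are FPKM, fragment counts scaled to transcript length and to the mapped fragments of the library, as the authors deposited them. Differences are TBI minus sham on the log2(FPKM + 0.5) scale, which understates the change of low genes. Rows with a mean of at least 1 FPKM were tested with limma, 14637 in CA1 and 13413 in WBC, and a row passed at a Benjamini-Hochberg adjusted p under 0.05. Since nothing says that the libraries of a group are separate animals, those p-values measure the spread among these libraries alone, which may be technical. In CA1 1 row passed (0.00683% of rows) and 752 had an unadjusted p under 0.05 (5.14%), a number that became 1802 without the sham library numbered 1 and 493 without the sham library numbered 3. In WBC 0 rows passed, while 2727 had an unadjusted p under 0.05 (20.3%), 1049 higher and 1678 lower. With quantile normalization of the libraries that split turned to 1496 higher and 1185 lower. The FPKM do not give the sequencing depth, so it is unknown. Markers of the labelled tissues were present. The excitatory neuron gene Slc17a7 averaged 797 FPKM in sham CA1 and 0.828 FPKM in sham WBC, and the T cell gene Cd3e averaged 125 FPKM in sham WBC. The WBC libraries also held much red cell RNA, described with the blood results.

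In CA1 Slc14a1 was lower in the injured rats. The 4 sham libraries, in the order of their labels, held 21.3, 22.9, 21.0 and 24.2 FPKM. The 4 TBI libraries held 16.5, 17.5, 15.0 and 18.2 FPKM. Every TBI library lay below every sham library, with 2.82 FPKM between the lowest sham and the highest TBI value. The means were 22.4 ± 1.48 FPKM in sham and 16.8 ± 1.40 FPKM in TBI (SD, n = 4 each), a log2 difference of -0.40 with a standard error of 0.08 from the spread of the libraries, or a level 24.8% lower (a change of -24.8%). Of the tested CA1 rows 2.88% had groups that did not overlap, 1.6% lower and 1.28% higher in TBI. Only 1.49% had a lower difference than Slc14a1, while the median over all of them was -0.01.

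In WBC the order was the other way round. The sham libraries held 10.5, 16.6, 19.1 and 9.40 FPKM, and the TBI libraries held 28.2, 28.0, 29.1 and 27.3 FPKM. Every TBI library lay above every sham library, by at least 8.22 FPKM. The means were 13.9 ± 4.68 FPKM in sham and 28.1 ± 0.729 FPKM in TBI (SD, n = 4 each), a ratio of 2.03 and a log2 difference of 1.05 with a standard error of 0.24. A higher difference was found in 0.708% of the tested WBC rows, whose median difference was -0.00. Groups that did not overlap were more common here than in CA1, at 14.2% of rows.

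**Figure D1:**
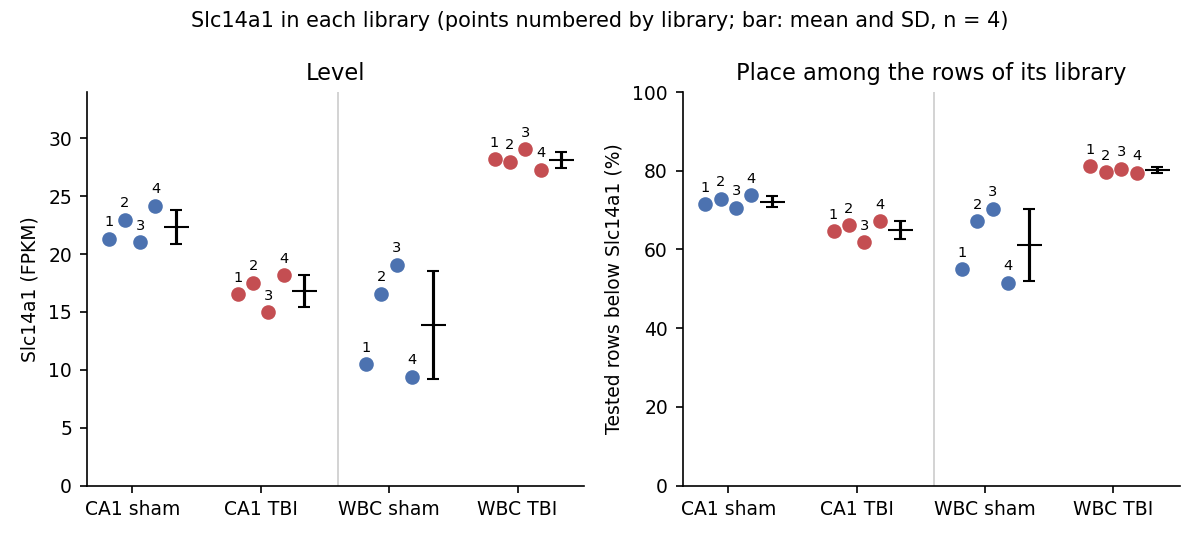
Slc14a1 level in FPKM (vertical axis, from 0) in each of the 16 libraries, by tissue and group (left), and the percent of tested rows of the same library that lie below it (right). Points are libraries, numbered as labelled, and bars are means with the SD over 4 libraries. The TBI libraries lie below all sham libraries in CA1 and above all of them in WBC, where they lie between 27.3 and 29.1 FPKM and the sham libraries spread from 9.40 to 19.1 FPKM.

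The spread within groups differed more in WBC than in CA1. The sham WBC libraries fell into a lower pair, 1 and 4, and a higher pair, 2 and 3, with a highest value 2.03 times the lowest. Their SD on the log2 scale was 0.478, against a median of 0.144 over the 4187 rows within 2 times of the gene's level, and 94.7% of those rows had a smaller one. The TBI WBC libraries had a log2 SD of 0.0367, and only 3.13% of the same rows had a smaller one. In CA1 both groups had an ordinary spread, 0.0927 in sham and 0.119 in TBI, against medians of 0.120 and 0.101 over 4840 rows of like level.

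The 4 groups can be ordered only loosely, because each tissue's table was normalized on its own. By mean FPKM the order was WBC TBI, CA1 sham, CA1 TBI and WBC sham. The ranges of CA1 TBI and WBC sham overlapped, so those neighbours did not differ beyond their spread. As a place within each library, Slc14a1 stood above 70.5 to 73.7% of tested rows in sham CA1 and above 61.9 to 67.2% in TBI CA1. It stood above 51.6 to 70.4% of rows in sham WBC and above 79.5 to 81.2% in TBI WBC. By this measure the WBC TBI libraries again stood highest.

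UT-B is known in blood from the red cell membrane, so Slc14a1 was set beside other genes of the red cell surface. Most of these were lower in the injured rats. Which blood cells the Slc14a1 transcript came from was not tested. Of 29 blood group and membrane transport genes of the red cell, 22 had a row in the WBC table and 20 were tested. None passed in limma, 17 were lower and 3 higher in TBI, and the median difference was -0.72 (adjusted p from 0.13 to 0.94), against 50.4% of all WBC rows lower, 49.6% higher and a median of -0.00. At an unadjusted p under 0.05 12 were lower and 1 higher, against 12.5% and 7.82% of all rows. Of the 20, 10 were lower with no overlap between the groups and 0 were higher with no overlap, against 8.63% and 5.61% of all rows.

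Aqp1, the water channel of the red cell membrane and the carrier of the Colton antigens, held 606, 624, 722 and 599 FPKM in sham WBC. It held 157, 407, 358 and 234 FPKM in TBI WBC. All 4 TBI libraries lay below the sham libraries, with means of 638 ± 57.1 and 289 ± 114 FPKM (SD, n = 4 each) and a log2 difference of -1.23 (limma adjusted p = 0.127). Slc4a1, the anion exchanger band 3, held 1697 ± 293 FPKM in sham and 878 ± 258 FPKM in TBI, without overlap. Rhd, which encodes the Rh blood group protein, held 667 ± 71.7 and 321 ± 133 FPKM, and Kel, which encodes the Kell antigen, held 485 ± 109 and 198 ± 85.9 FPKM, both without overlap. The 3 members higher in TBI, named after their values were seen, were Sema7a (1.54 and 2.38 FPKM), the glucose transporter Slc2a1 (7.75 and 9.15 FPKM) and the nucleoside transporter Slc29a1 (2.94 and 2.99 FPKM). None of these 3 had groups that stood apart. No member of the list had a difference as high as that of Slc14a1, since they reached from -1.40 to 0.49.

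**Figure D2:**
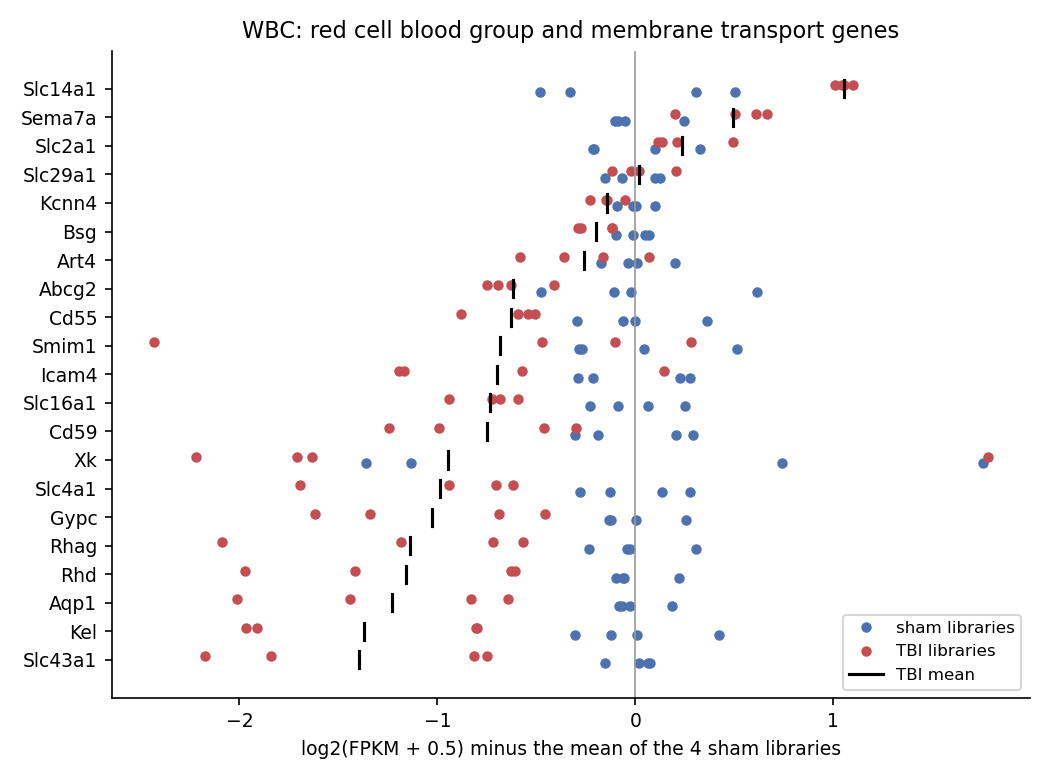
Level of Slc14a1 and the 20 tested red cell blood group and membrane transport genes in each WBC library, as log2(FPKM + 0.5) minus the mean of the 4 sham libraries (horizontal axis), 1 line a gene, with sham libraries in blue, TBI libraries in red and a black tick at the TBI mean. Slc14a1, with its tick at 1.05, lies to the right of the whole list, of which 17 of 20 genes have their tick below 0.

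The broader erythroid markers showed the same direction as that list. Of 48 genes, 39 had a row, 35 were tested and all 35 were lower in TBI, 24 of them without overlap (8.63% of all WBC rows), with a median difference of -0.95. None passed in limma, and 30 were lower at an unadjusted p under 0.05 (12.5% of all rows). Over the other settings run, single libraries left out included, 97.1 to 100% of the tested members were lower. Their summed level ran from 19465 to 29942 FPKM in the sham libraries and from 7744 to 18173 FPKM in the TBI libraries. Hba1 and Hba2 were listed at 0 in this table, and a further 3 rows were left out of the sums because the authors' tool did not report their estimate as OK. Alas2, whose enzyme starts heme synthesis in red cell precursors, held 9689 ± 2120 FPKM in sham and 6080 ± 2044 FPKM in TBI. Fewer red cells or precursors in a WBC preparation and less red cell RNA in each of them cannot be told apart in bulk samples. The cause was not tested, and the amount of red cells left in each preparation is unknown.

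As a share of red cell transcripts, Slc14a1 was therefore further apart between the groups than in FPKM. The shares do not show that Slc14a1 was read in the same cells as these transcripts. Its level was 1.57 to 2.66% of that of Aqp1 in the sham WBC libraries and 6.88 to 17.9% in the TBI libraries. As a share of Slc4a1 it was 0.680 to 0.939% in sham and 2.56 to 5.44% in TBI. As a share of Kel it was 1.96 to 4.37% and 10.2 to 23.2%. None of these ranges could overlap, because Slc14a1 was higher and Aqp1, Slc4a1 and Kel were lower without overlap. The shares therefore give only the size of the gap. The TBI library numbered 1 was the highest in each of these shares and had the lowest erythroid sum, 7744 FPKM.

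Markers of the other blood cells differed less than those of red cells, apart from platelets. All 13 tested platelet genes were lower in TBI, 9 of them without overlap (8.63% of all rows), with a median difference of -0.81. Of the T cell genes 14 of 16 were higher (median 0.08), but 62.5% were lower (median -0.03) without the TBI library numbered 4 and 50% without the sham library numbered 2, so the direction rests on those libraries. Of the cytotoxic and natural killer cell genes 13 of 15 were higher (median 0.31, and 33.3% lower without the TBI library numbered 1). At an unadjusted p under 0.05 in limma 6 of these were higher (7.82% of all rows), and 0 of the T or B cell genes were higher or lower. All 12 B cell genes were lower (median -0.21), a direction that turned with quantile normalization, under which 33.3% of them were lower. Neutrophil genes were 5 higher and 5 lower, and monocyte genes 4 and 4. With group means subtracted, correlations with Slc14a1 were above 0 for 30 of 35 erythroid genes (median 0.29) and 8 of 8 monocyte genes (0.40). They were above 0 for 9 of 13 platelet, 8 of 16 T cell, 5 of 12 B cell, 7 of 15 cytotoxic and 3 of 10 neutrophil genes. Of all WBC rows 51.2% were above 0. The lists were not compared by a test. The part of these cell types in the WBC level of Slc14a1 was not tested.

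The red cell markers that were abundant in WBC were far lower in CA1, some of them near 0. Kel, present at 485 FPKM in sham WBC, held 0.0585 to 0.129 FPKM in sham CA1 and 0.0630 to 0.115 FPKM in TBI CA1. Slc4a1 held 0.219 to 0.350 FPKM in sham and 0.252 to 0.656 FPKM in TBI. Alas2 held 2.20 to 2.87 FPKM in sham and 3.11 to 6.20 FPKM in TBI, groups that did not overlap and lay opposite to those of Slc14a1. Of the 22 erythroid genes above the minimum in CA1 13 were higher and 9 lower in TBI, with a median of 0.00. The part of red cell RNA in the CA1 level of Slc14a1 was not tested.

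The astrocyte genes as a list had a median difference near 0 in CA1, which moved when libraries were left out, while Slc14a1 was lower. Of 35 astrocyte markers 33 had a row and 32 were tested; 14 were higher and 18 lower in TBI, against 46.7% and 53.3% of all CA1 rows. None passed in limma (adjusted p from 0.71 to 0.99), 4 were lower and 0 higher at an unadjusted p under 0.05 (2.6% and 2.54% of all rows), and the median difference was -0.03. When 1 library was left out, that median ran from -0.10 (without the TBI library numbered 4, 78.1% of members lower) to -0.00 (without the TBI library numbered 1, 50% lower), and it was also -0.10 without the sham library numbered 1. Their summed level was 8451 to 10303 FPKM in sham and 8492 to 9682 FPKM in TBI, ranges that overlapped. The differences reached from -0.37 to 0.40, so that of Slc14a1, at -0.40, lay below all of them.

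Of the 4 most abundant of these markers Slc1a2 had the lowest TBI mean relative to sham, and none had groups apart. Apoe, the lipid carrier, held 3095 ± 480 FPKM in sham and 3082 ± 228 FPKM in TBI, and the calcium-binding S100b held 1121 ± 209 and 1123 ± 163 FPKM. The glutamate transporter Slc1a2 held 643 ± 102 and 567 ± 22.5 FPKM (log2 difference -0.17), and glutamine synthetase, Glul, held 628 ± 94.4 and 613 ± 73.3 FPKM. Only Slco1c1, a thyroid hormone transporter, and Cldn10, a claudin, were lower without overlap, 2 of the 32 against 1.6% of all rows; both are named after their values were seen. Slco1c1 averaged 35.9 ± 2.25 FPKM in sham and 29.5 ± 0.843 FPKM in TBI, and Cldn10 averaged 27.6 ± 2.59 and 22.7 ± 1.31 FPKM.

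Within the groups the correlation of Slc14a1 with most astrocyte genes was above 0, and this was not seen for astrocyte genes alone. After the mean of each group was subtracted, its Pearson correlation over the 8 CA1 libraries was above 0 for 30 of the 32 markers, with a median of 0.40, against 53.3% of all tested rows above 0 and a median correlation of 0.03. The erythroid list had 18 of 22 above 0 (median 0.34) and the microglia list 16 of 19 (median 0.28). The oligodendrocyte list had 10 of 19 (median 0.02) and the excitatory neuron list 5 of 15 (median -0.37). The points share libraries and normalization and the lists were not compared by a test, so this is a description. Slc7a10, an amino acid exchanger of astrocytes, had 0.91 and Mlc1, an astrocyte membrane protein, had 0.85; both were chosen after their values were seen. Slc7a10 held 13.7, 14.8, 13.5 and 15.5 FPKM in sham and 15.2, 17.1, 13.8 and 15.8 FPKM in TBI. In both groups it was higher in the libraries numbered 2 and 4 than in that numbered 3, as was Slc14a1, but its TBI mean was not lower.

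**Figure D3:**
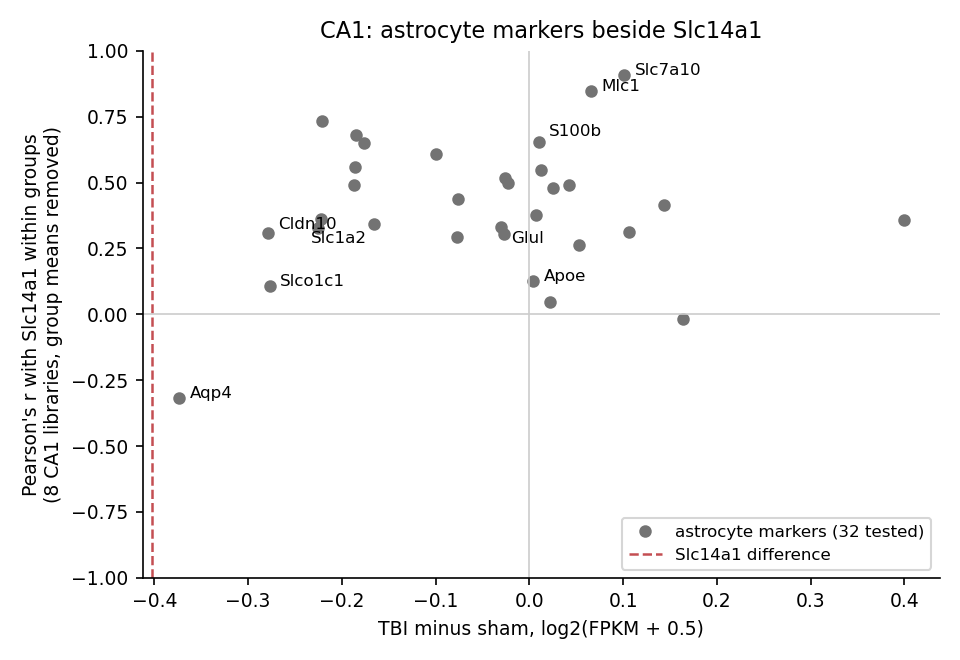
Astrocyte markers tested in CA1, each a point, with the TBI minus sham difference on the log2(FPKM + 0.5) scale on the horizontal axis and the group-centred Pearson correlation with Slc14a1 over 8 libraries on the vertical axis. The dashed line stands at the Slc14a1 difference of -0.40, left of all 32 markers, of which 30 lie above 0 on the vertical axis.

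Markers of blood vessels and of neurons were more often lower than higher in CA1, though none passed in limma. Of 22 tested endothelial and pericyte genes 17 were lower (median -0.12), against 53.3% of all rows. When 1 library was left out, 63.6 to 95.5% were lower, with a median from -0.15 to -0.04. Among the 22, 3 were lower without overlap and at an unadjusted limma p under 0.05 (1.6% and 2.6% of all rows). They were the vascular receptors Flt1, Kdr and Tek, named after their values were seen. Of 15 excitatory neuron genes 13 were lower (median -0.17), 1 of them without overlap, and 86.7 to 93.3% were lower in every setting run. The choroid plexus marker Ttr ranged from 3.42 to 1271 FPKM in sham and from 160 to 2694 FPKM in TBI. The lowest and the highest Ttr value came from the libraries numbered 1 of sham and TBI, and without both of them the CA1 difference of Slc14a1 was -0.42. The part of the other cell types in the CA1 level was not tested.

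The genes of the urea cycle and arginine metabolism were split between higher and lower in CA1. In WBC they were more often lower than higher with all libraries, and none passed the test. Slc14a2, which encodes the kidney urea transporter UT-A, held 0 to 0.0650 FPKM in the CA1 libraries and 0 to 0.0593 FPKM in the WBC libraries, so Slc14a1 was the only urea transporter gene with a level above 1 FPKM. Of 28 genes of the urea cycle and arginine metabolism 25 had a row in CA1 and 19 were tested. None passed in limma (0 also at an unadjusted p under 0.05), 11 were higher and 8 lower in TBI, and the median difference was 0.02. In WBC 13 were tested, 0 passed, and 3 were lower at an unadjusted p under 0.05 (12.5% of all WBC rows). Of the 13, 4 were higher and 9 lower (49.6% and 50.4% of all rows), and the median was -0.07. When 1 library was left out, 46.2 to 76.9% were lower and the median ran from -0.09 to 0.02, so that direction rests on single libraries.

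The arginases, which release urea, were near level in CA1. Arg1 held 8.21 ± 1.29 FPKM in sham and 7.90 ± 1.21 FPKM in TBI, and Arg2 held 10.6 ± 0.550 and 10.5 ± 0.599 FPKM. In WBC both were low, with Arg1 at 0.0694 and 0.126 FPKM and Arg2 at 0.857 and 1.04 FPKM. Asl, the lyase that makes arginine, held 4.77 ± 0.354 and 5.06 ± 0.332 FPKM in CA1. In WBC it held 18.0 ± 2.83 FPKM in sham and 12.7 ± 1.84 FPKM in TBI, lower without overlap (limma adjusted p = 0.143).

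The arginine transporters were slightly lower in CA1. Slc7a1 held 7.81 ± 0.363 FPKM in sham and 7.02 ± 0.507 FPKM in TBI, and Slc7a2 held 4.77 ± 0.250 and 4.28 ± 0.139 FPKM. Both had groups that did not overlap, 2 of 19 genes against 1.6% of rows, and limma adjusted p of 0.89. Within the groups their correlations with Slc14a1 were -0.41 and -0.35, so they did not follow it library by library.

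Genes of the list that act on ornithine and polyamines differed unequally in WBC. Odc1, ornithine decarboxylase, held 148 ± 40.0 FPKM in sham and 83.7 ± 17.7 FPKM in TBI, and Azin1, which frees that enzyme from its antizyme, held 22.5 ± 2.90 and 18.0 ± 2.01 FPKM, both without overlap but not past the threshold (limma adjusted p = 0.142 and 0.193). The spermine synthase gene Sms and the acetyltransferase gene Sat1 had differences of -0.11 and -0.07 with overlapping groups (limma adjusted p = 0.79 and 0.83), and both turned sign in some settings. Slc25a15, which carries ornithine into mitochondria, was higher, at 2.55 ± 0.180 and 2.83 ± 0.0522 FPKM. These 3 and Asl were the tested members whose WBC groups stood apart, 3 lower and 1 higher of 13, against 8.63% and 5.61% of all rows. Nags, which makes the activator of the first urea cycle enzyme, was too low to test but had groups apart in both tissues. It held 0.607 ± 0.106 and 0.380 ± 0.128 FPKM in CA1, and 0.604 ± 0.170 and 0.159 ± 0.0547 FPKM in WBC, lower in TBI both times.

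Water channels were the other family followed, since astrocytes and red cells hold both kinds of channel. Aqp4, the channel of astrocyte endfeet, had 2 rows in the CA1 table. The larger one held 135, 122, 120 and 118 FPKM in sham and 120, 89.1, 90.9 and 84.2 FPKM in TBI. Its groups overlapped through the TBI library numbered 1, and the log2 difference was -0.37 (limma adjusted p = 0.89). The smaller row was near 0 in both libraries numbered 1, at 2.40 and 1.84 FPKM, and held 33.9 to 67.3 FPKM in the others, so the larger row held a different part of the sum in different libraries. The sum of the rows averaged 157 FPKM in sham and 144 FPKM in TBI. Slc14a1 as a share of the larger row overlapped between the groups, at 15.8 to 20.5% in sham and 13.8 to 21.6% in TBI. As a share of the sum of the rows it was 13.7 to 15.6% in sham and 10.1 to 13.6% in TBI, ranges that just missed each other, so the overlap depended on which Aqp4 value was used.

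Of the other aquaporins 3 were tested in CA1, Aqp9 (4.25 and 3.71 FPKM in sham and TBI), Aqp11 (9.04 and 8.33 FPKM) and Aqp1 (1.74 and 1.80 FPKM). None of the 4 passed in limma or had groups apart, and 1 (Aqp4) had an unadjusted p under 0.05. Aqp9, which passes urea and glycerol as well as water, followed Slc14a1 within the groups, with a centred correlation of 0.89 over the 8 CA1 libraries. Those of Aqp4, Aqp1 and Aqp11 were -0.32, -0.09 and -0.02. Aqp9 was singled out after its value was seen, and only the larger of its 2 CA1 rows is given. Its sham libraries held 3.35, 4.87, 3.35 and 5.42 FPKM and its TBI libraries 3.10, 4.70, 2.94 and 4.10 FPKM. Libraries 2 and 4 were the higher pair in both groups, as for Slc14a1.

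The genes that a cell switches on under osmotic stress were also counted. Of 14 tested in CA1, 6 were higher and 8 lower in TBI (median -0.05), and of 13 in WBC 7 were higher and 6 lower (median 0.03). None passed in either tissue, with 2 in CA1 and 3 in WBC at an unadjusted p under 0.05 (5.14% and 20.3% of all rows), the latter near the share of all rows. Ammonia and glutamine genes were 4 higher and 6 lower in CA1 (median -0.05), and 3 higher and 5 lower in WBC (median -0.13), again with 0 passing. At an unadjusted p under 0.05 1 was lower in CA1 and 3 were lower in WBC (2.6% and 12.5% of all rows).

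The rows whose pattern over the 8 libraries of a tissue was most like that of Slc14a1 were then listed, among rows of 1 gene with a mean of at least 5 FPKM (7751 in CA1 and 6636 in WBC). With the group means subtracted, Apln, which encodes the peptide apelin, was the most like it in CA1, with a correlation of 0.97. It was followed by Foxo4, Mtrr and Snf8, a subunit of a sorting complex of endosomes, at 0.96, 0.96 and 0.95. Dhrs3, a retinaldehyde reductase, was the most unlike, at -0.92. In WBC the most like was Zmym3, a zinc finger protein, at 0.99, followed by Rab3gap2 at 0.97 and Hivep1 at 0.95, and the most unlike was Desi2 at -0.97.

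Those WBC values rest mostly on the sham libraries, because the TBI libraries of Slc14a1 hardly differ. Zmym3 held 6.92, 8.20, 8.71 and 6.57 FPKM in sham WBC, which is the order of Slc14a1 in the same libraries. Correlations above 0.9 were reached by 18 rows in CA1 (0.232% of those compared) and 10 in WBC (0.151%). Without subtraction of the group means, where the TBI difference itself counts, the most like genes were Git1 in CA1, at 0.97, and Abcd4 in WBC, at 0.97. The most unlike were Fn3k in CA1 (-0.92) and Tcta in WBC (-0.94). No gene was among the most like in both tissues by the same measure.

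**Figure D4:**
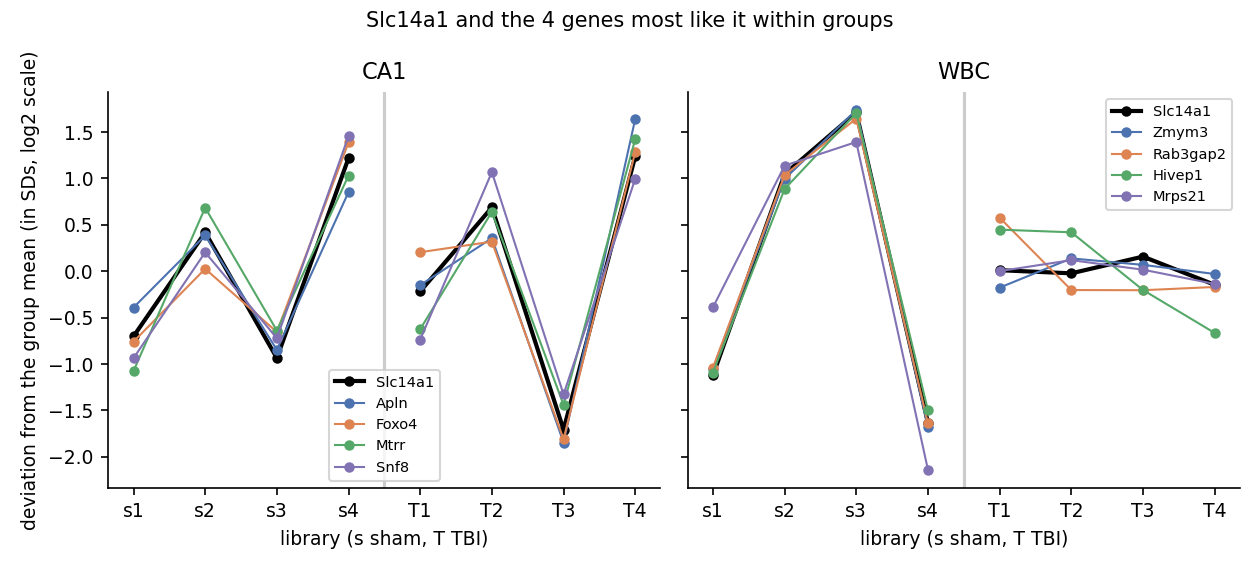
Deviation from the group mean on the log2(FPKM + 0.5) scale, in SDs of the gene's own deviations (vertical axis), in each library (horizontal axis, s sham and T TBI) of Slc14a1 and the 4 genes with the highest group-centred correlation with it, CA1 (left) and WBC (right). Lines only join the points of a gene. In WBC the genes part the sham libraries 2 and 3 from 1 and 4. In the TBI libraries Slc14a1 lies close to 0, with a log2 SD of 0.0367, while Hivep1 and Rab3gap2 spread more.

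Genes with groups apart in opposite directions in CA1 and WBC, as for Slc14a1, were counted. Without overlap, 1.6% of all tested rows were lower and 1.28% higher in CA1, and 5.61% were higher and 8.63% lower in WBC. The counts were not compared with the number that those shares would give. Among 7570 genes tested in both, 4 were lower in CA1 and higher in WBC with no overlap in either (0.0528%), and 5 were higher in CA1 and lower in WBC (0.0661%). For comparison, 20 were lower in both (0.264%) and 7 higher in both (0.0925%). Besides Slc14a1, whose membership the choice of the gene fixes, the first set held Adck2, a mitochondrial kinase-like protein (-0.22 in CA1 and 0.19 in WBC), the phospholipase Plcb3 (-0.17 and 0.26) and the GABA-B receptor subunit Gabbr1 (-0.10 and 0.59). Gabbr1 held 437 and 408 FPKM in sham and TBI CA1, and 19.1 and 29.2 FPKM in WBC. With fewer libraries groups part more easily. The 9 genes became 11 to 72 when 1 library was left out (72 without the sham CA1 library numbered 1) and 192 without all libraries numbered 1. Slc14a1 was bound to stay among them, since leaving out libraries cannot make separate groups overlap.

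The other set held genes of which 2, Gabarapl1 and Sqstm1, encode proteins of autophagy. Gabarapl1 differed by 0.10 in CA1 and -0.49 in WBC and Sqstm1 by 0.12 and -0.31 (-0.02 in WBC with quantile normalization). Gda, guanine deaminase, differed by 0.14 and -0.89, Mpp2, a membrane scaffold, by 0.15 and -1.26, and Atp6v0e1, a proton pump subunit, by 0.29 and -0.39. Within these 9 genes Slc14a1 had the largest CA1 difference, and Mpp2 the largest in WBC. The difference between the tissues was not tested, since their tables were normalized separately.

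**Figure D5:**
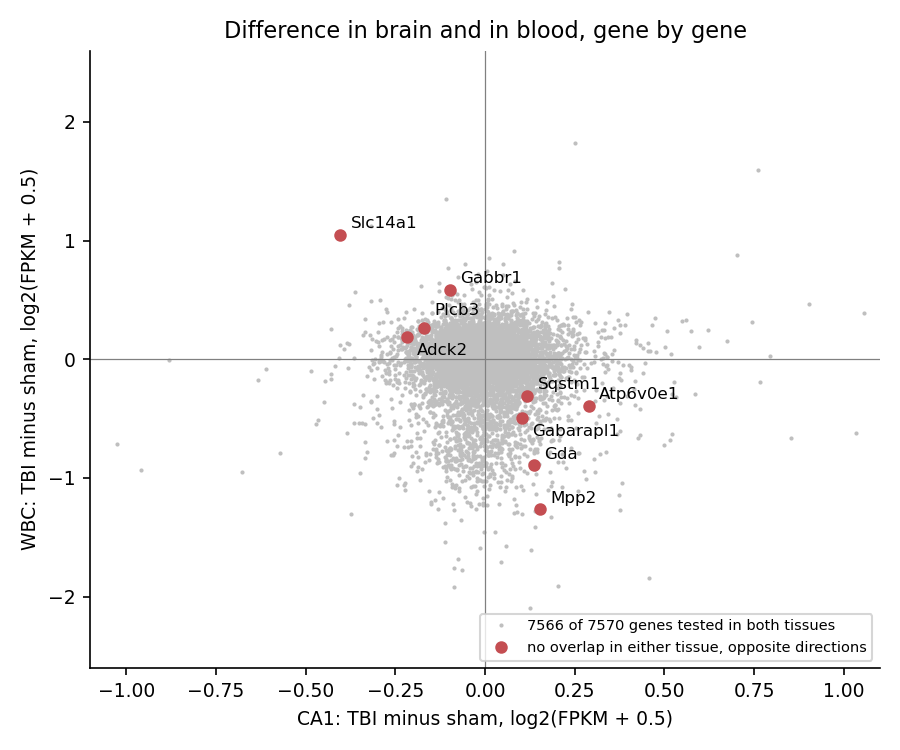
TBI minus sham difference on the log2(FPKM + 0.5) scale in CA1 (horizontal axis) and WBC (vertical axis) for the genes tested in both tissues, each a grey point, of which 7566 of 7570 fall within the axes. The 9 named genes are those whose groups overlap in neither tissue and lie in opposite directions; Slc14a1 is at -0.40 and 1.05.

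The genes next to Slc14a1 on the chromosome were taken in the RefSeq order of build GRCr8. On one side stand Siglec15, Pstpip2 and Atp5a1, and on the other Slc14a2, Pard6g and Adnp2. None of the 6 had groups apart in either tissue, against 2.88% of all tested rows in CA1 and 14.2% in WBC. With so few genes and such shares, that count says little about the neighbours. Siglec15 and Slc14a2 were too low to test in both tissues, and Pard6g in WBC. Atp5a1, a subunit of the mitochondrial ATP synthase, held 408 ± 3.23 and 423 ± 18.0 FPKM in sham and TBI CA1, and 128 ± 14.1 and 114 ± 2.34 FPKM in WBC, where its difference of -0.15 turned to 0.14 with quantile normalization. Adnp2 held 5.49 ± 0.399 and 5.14 ± 0.383 FPKM in CA1, and 3.64 ± 0.690 and 4.06 ± 0.385 FPKM in WBC. Pstpip2 held 6.36 ± 3.39 and 6.42 ± 0.754 FPKM in WBC.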

How the data were processed

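RNA-seq libraries of CA1 and of white blood cells (WBC) from sham and TBI rats were grouped by the titles and treatment labels, 4 in each group. The FPKM values were deposited by the authors in 1 table per tissue. Per the submitters' processing notes, reads were aligned with TopHat, TopHat2, Bowtie and Bowtie2 to build rn5 and quantified with Cufflinks and Cuffdiff. The sources used here give no versions, no annotation and no setting for normalization. Each estimate carries a status from that software, and 96 CA1 and 15 WBC rows above the minimum were left out because a status was not OK. Genes that every cell uses, such as Srm, are listed at 0, so a 0 may be a failed estimate. Low FPKM values did not fall on common steps in these files, so no depth was recovered and no counting interval is given.

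Values were taken as log2(FPKM + 0.5). Rows with a mean of at least 1 FPKM were fitted in each tissue with limma 3.58.1 (R 4.3.3; lmFit and eBayes with a trend) without covariates, and p-values were adjusted by Benjamini-Hochberg over all rows of the tissue. The script was tested on simulated data. The gene, the gene lists and the tests were chosen with earlier results of these data known. Named genes were Slc14a1 and Slc14a2, members of the urea cycle and aquaporin lists, the 4 most abundant members of other lists, the rows with the highest and lowest correlation with Slc14a1, genes apart in opposite directions in both tissues, and the 3 neighbours on each side; others are said to be chosen after their values were seen. Alternatives varied the pseudocount, filter, scaling, limma setting, replicate block and libraries.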

Additional observations from a re-analysis of the deposited data

Results flagged for a closer look

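The differences of 9 genes lay in opposite directions in the tissues, with every TBI library on 1 side of every sham library in CA1 and on the other side in WBC. The WBC difference minus the CA1 difference, on the log2(FPKM + 0.5) scale, was 1.45 for Slc14a1, 0.69 for Gabbr1, 0.44 for Plcb3 and 0.41 for Adck2. It was -1.42 for Mpp2, -1.03 for Gda, -0.68 for Atp6v0e1, -0.59 for Gabarapl1 and -0.42 for Sqstm1. The difference between the tissues was not tested. Slc14a1 was chosen for this pattern.

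In 14 of the 172 groups of 4 libraries examined for the named genes, 1 library stood apart from the other 3 by Dixon's criterion for groups of 4. Chance alone flags about 1 group in 20. None of the 4 groups of Slc14a1 itself was among them.

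Among the CA1 sham libraries, that numbered 2 was low for Asl (4.24 FPKM, others 4.89 to 5.01) and for Gda (68.8 FPKM, others 78.1 to 79.8), and that numbered 4 was high for Git1 (198 FPKM, others 181 to 183). The CA1 TBI library numbered 1 was high for the choroid plexus gene Ttr (2694 FPKM, others 160 to 574) and for Aqp1 (4.36 FPKM, others 0.751 to 1.18), and low for Slc1a2 (534 FPKM, others 577 to 580). The CA1 TBI library numbered 2 was low for Slc7a1 (6.26 FPKM, others 7.21 to 7.33) and high for Alas2 (6.20 FPKM, others 3.11 to 3.54) and Gabarapl1 (352 FPKM, others 312 to 315).

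In WBC the sham library numbered 2 was high for Rhd (774 FPKM, others 622 to 637), low for Slc25a15 (2.28 FPKM, others 2.61 to 2.66) and the only one with Siglec15 above 0 (0.131 FPKM). The sham library numbered 4 was high for Sema7a (1.91 FPKM, others 1.39 to 1.46). The TBI library numbered 1 was high for Rab3gap2 (9.97 FPKM, others 9.42 to 9.44).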

How the results depend on the processing

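Slc14a1 had groups that did not overlap, lower in CA1 and higher in WBC, with both other scalings. They were also apart with both filters on low values and every library left out. Those settings cannot make separate groups overlap, so this outcome was fixed by the choice of the gene. The difference of Slc14a1 ranged from -0.44 to -0.35 in CA1 and from 0.89 to 1.22 in WBC when 1 library was left out. It was -0.42 and 0.94 without both libraries numbered 1. The calls of limma moved with the settings. In CA1 3 rows passed without the trend, 3 with sample weights and 2 without both libraries numbered 1, and 1 to 2 when 1 library was left out. In WBC 0 to 4 passed when 1 library was left out, 4 of them without the TBI library numbered 2. The cause was not tested. The share of rows with groups apart was 4.17 to 12.7% in CA1 (12.7% without the sham library numbered 1) and 17.0 to 20.8% in WBC when 1 library was left out, and 20.3% and 22.8% without both libraries numbered 1, where fewer libraries part more easily. The genes apart in opposite directions numbered 11 to 72 and 192 in the same settings. Leaving out both libraries numbered 1, and the settings run on lists and on the opposite genes, were chosen after seeing the data.

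Equal replicate numbers met the criterion for pairing sham and TBI libraries, a correlation of deviations over 0.1 in every pair, in neither tissue: the correlations were 0.210, 0.0230, 0.0514 and 0.240 in CA1 and 0.147, -0.00483, 0.0218 and -0.00821 in WBC. The CA1 libraries numbered 1 and 4 and the WBC libraries numbered 1 were each other's best match, so a partial pairing is possible. Mutual best matches also joined unequal numbers: CA1 sham 3 with TBI 2, WBC sham 2 with TBI 3, and WBC sham 3 with TBI 2. The matches therefore do not settle whether libraries were paired. With the replicate block 1 row passed in CA1 and 0 in WBC. With equal groups the block leaves a difference of means unchanged by arithmetic, so the Slc14a1 differences of -0.40 and 1.05 could not move. The depth is unknown from FPKM, so low genes such as Nags and Slc14a2 were not tested; the WBC difference of Nags was -1.43 with a pseudocount of 0.1 and -0.46 with 1.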
